A study of Bos taurus with 6 samples.

Results

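Circular RNAs (circRNAs) are closed RNAs made when a downstream splice site is joined back to an upstream one, and the reads that cross this joint, called junction reads, count them. The circRNAs described here are the 10 of 14274 that the authors' files annotate to AASS (4 circRNAs), HIBCH (2) or PCCA (4), 3 genes of amino acid breakdown. They were found by an exact match of the gene symbol, and each of the 10 is annotated to 1 gene alone. They were measured in subcutaneous fat of Qinchuan cattle, a Chinese beef breed, sampled at slaughter as 3 calves of 6 months and 3 adults of 24 months. Neither sex nor feeding is given in the labels, and the labels name no treatment or altered gene in either age. The design asks which circRNAs of this fat differ between calves and adults. The 3 genes were picked with the age difference of their junction reads already known, so that difference is given as a description, with its fold change and error but without a p-value.

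The products of all 3 genes work in mitochondria. AASS, aminoadipate-semialdehyde synthase, carries the lysine-ketoglutarate reductase and saccharopine dehydrogenase activities that open the main route of lysine breakdown. HIBCH, 3-hydroxyisobutyryl-CoA hydrolase, removes coenzyme A from an intermediate of valine. PCCA is the biotin-carrying alpha subunit of propionyl-CoA carboxylase, which passes carbon from valine, isoleucine, methionine, threonine and odd-chain fatty acids towards succinyl-CoA. Fat cells take up and burn branched-chain amino acids, and in ruminants propionate from the rumen also feeds the propionyl-CoA pool. A circRNA of an enzyme gene is not a measure of that enzyme.

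The 6 libraries held 35616 to 47298 junction reads, so a floor of 3 reads corresponds to 63.4 to 84.2 CPM (junction reads scaled to a library total of 1000000). A count of 1 occurs 0 times in the deposited table and the smallest nonzero count was 2. A circRNA at 0 in a library may therefore have had a single read. No 2 libraries had identical counts. Of all circRNAs, 59.2% were read in 1 library only. In bulk fat, fewer cells of a type and less RNA per cell cannot be told apart. Skeletal muscle markers stood at 297 junction reads in adult 2 and at 0 to 3 in the other libraries, and the macrophage receptor gene ADGRE1 at 457 reads in adult 3.

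The 10 circRNAs held 738 junction reads, 0.311% of all. AASS had 419 of these, HIBCH 193 and PCCA 126. The circRNAs of 1 gene share a gene annotation and are not treated as independent of each other. A single circRNA led each gene: novel_circ_0010690 took 76.6% of AASS reads, novel_circ_0009321 took 98.4% of HIBCH reads and novel_circ_0001823 took 78.6% of PCCA reads. By junction reads summed over the libraries these ranked 83, 179 and 365 among all circRNAs. All 3, with novel_circ_0010691 and novel_circ_0010688 of AASS, were read in all 6 libraries. Of the other 5, novel_circ_0010689 of AASS was read in 3 libraries, novel_circ_0001826 of PCCA in 2, and novel_circ_0009322 of HIBCH and both novel_circ_0001824 and novel_circ_0001825 of PCCA in 1.

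The positions place the circRNAs of each gene in separate blocks. Positions are given as in the authors' files. Neither a genome build nor whether starts count from 0 or 1 was found, both being not given in the sources used here. On the minus strand of chromosome 4, the leading AASS circRNA spans 87352683 to 87371198, and novel_circ_0010691 (87363501 to 87366511) lies inside it. The other AASS pair lies apart from these, at 87314296 to 87332086 (novel_circ_0010688) and 87323390 to 87332086 (novel_circ_0010689), and shares its upper end. On the plus strand of chromosome 12, novel_circ_0001823 of PCCA spans 80934289 to 80948057. The remaining 3 PCCA circRNAs lie together downstream: novel_circ_0001824 (80997097 to 81006241) and novel_circ_0001825 (80997097 to 81030920) share a start, and novel_circ_0001826 runs from 81030817 to 81031706.

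The annotation lists 1 or more introns for each circRNA, and exons for 3 of them, and the given spliced length is the sum of these listed pieces in all 10. For the leading AASS circRNA 7 introns and 2 exons are listed, 17379 of 18515 bases. The bases left out fall into 6 short stretches of 85 to 340 bases, 1136 in total, which lie between listed introns and at the lower end. The PCCA circRNA novel_circ_0001823 has 3 listed introns and 4 stretches of 79 to 151 bases left out, 428 in total, including both of its ends. Several ends fall on edges that another circRNA of the gene lists. Both ends of novel_circ_0010691 are edges of pieces listed for novel_circ_0010690, the start at intron_20 and the end at exon_3, and the end of novel_circ_0001824 is an edge of intron_19 listed for novel_circ_0001825. Whether the listed introns are part of the circles cannot be read from junction reads.

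The leading HIBCH circRNA is built differently in the annotation. It spans 56100 bases of the plus strand of chromosome 2 (5878676 to 5934776), longer than 99.3% of all circRNAs, whose median span is 5335 bases. A single intron of 543 bases near its upper end is listed, 0.968% of the span, against a median of 96.4% over circRNAs with listed pieces. The 55503 bases before that intron are assigned to no piece of HIBCH. They overlap by 8233 bases a circRNA of the opposite strand that is annotated to INPP1, an inositol phosphatase gene (novel_circ_0009320, 5869909 to 5886909, with 2 reads in 1 library). The other HIBCH circRNA, novel_circ_0009322 (6002942 to 6014361), has 3 listed introns that cover 96.7% of its span.

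**Figure D1:**
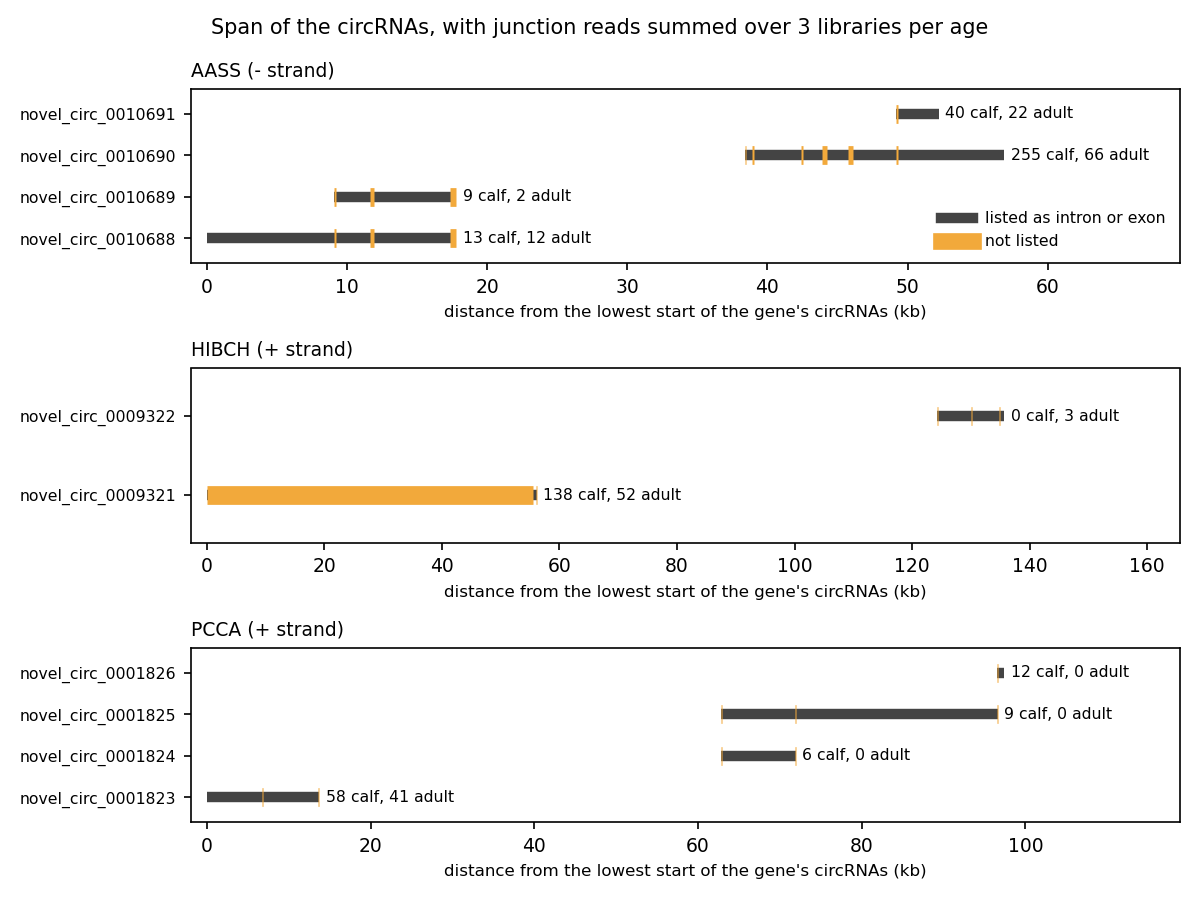
Span of each of the 10 circRNAs as distance in kb from the lowest start among the circRNAs of its gene, with listed introns and exons in dark grey, bases not listed in orange, and junction reads summed over 3 libraries of each age at the right. The HIBCH circRNA novel_circ_0009321 is almost wholly unlisted, while the other 9 are mostly listed pieces with short stretches between them.

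The leading AASS circRNA, novel_circ_0010690, was lower in all 3 adult than in all 3 calf libraries, with a log2 change of -2.01 ± 0.29 (SE, adult minus calf, edgeR). Calves 1 to 3 had 76, 110 and 69 junction reads (2042, 2780 and 1937 CPM). Adults 1 to 3 had 19, 20 and 27 reads (501, 423 and 676 CPM). Each adult lay below each calf, and the lowest calf was far above the highest adult. The calf mean was 2253 ± 459 CPM and the adult mean 533 ± 129 CPM (SD, n = 3 per age). It ranked between 36 and 62 among the circRNAs of a calf library and between 217 and 363 in an adult library. In the authors' deposited table the same circRNA has scaled group means of 85.1 in calves and 21.1 in adults and a log2 fold change of -1.999. It is the only 1 of the 10 in that table, which lists 48 circRNAs as lower and 33 as higher in adults.

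The circRNA nested inside it, novel_circ_0010691, had 10, 20 and 10 reads in calves and 5, 9 and 8 in adults. The groups did not overlap in CPM (calves 269, 505 and 281, adults 132, 190 and 200), but the adjusted p of its log2 change of -0.93 ± 0.48 (SE, edgeR) did not pass 0.05. The AASS circRNAs of the separate block did not show this order. novel_circ_0010688 had 5, 5 and 3 reads in calves and 2, 4 and 6 in adults, with the highest adult above every calf in CPM. novel_circ_0010689 had 7 and 2 reads in calves 2 and 3 and 2 in adult 3. Both were under the filter on low counts and were not tested.

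The make-up of the AASS reads is given by library. It contains the junction reads on which AASS was chosen, so it is a description, and shares within other host genes were not worked out. novel_circ_0010690 took 83.5%, 77.5% and 82.1% of the AASS reads of calves 1 to 3. In adults 1 to 3 it took 73.1%, 60.6% and 62.8%, and each adult share was under each calf share. The means were 81.0 ± 3.17% and 65.5 ± 6.66% (SD, n = 3 per age). The adult shares rest on 26 to 43 reads. Their 95% Wilson intervals were 53.9 to 86.3% in adult 1, 43.7 to 75.3% in adult 2 and 47.9 to 75.6% in adult 3. The first covers all 3 calf values and the other two lie below them, but the calf intervals reach down to 69.9%. Such intervals and floors hold for counting error alone, and no molecular identifiers are named in the labels. Summed over its 4 circRNAs, AASS had a calf mean of 2797 ± 686 CPM and an adult mean of 820 ± 222 CPM (SD), a log2 change of -1.71 ± 0.28 (SE).

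The HIBCH circRNA novel_circ_0009321 was also lower in adult fat, with a log2 change of -1.48 ± 0.28 (SE, edgeR). Calves 1 to 3 had 49, 39 and 50 reads (1317, 986 and 1404 CPM) and adults 1 to 3 had 15, 19 and 18 (395, 402 and 450 CPM). The groups did not overlap. The adult libraries lay close together, with a mean of 416 ± 30.1 CPM, while calves stood at 1235 ± 221 CPM (SD, n = 3 per age). novel_circ_0009322 was read only in adult 3, with 3 reads, which is the floor. Over both circRNAs HIBCH had a log2 change of -1.42 ± 0.28 (SE).

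For PCCA the ages overlapped. Its leading circRNA novel_circ_0001823 had 10, 26 and 22 reads in calves (269, 657 and 618 CPM) and 9, 14 and 18 in adults (237, 296 and 450 CPM). Calf 1 lay below adults 2 and 3, and the log2 change of -0.57 ± 0.43 (SE, edgeR) did not pass. The other 3 PCCA circRNAs were read in calves only. novel_circ_0001826 had 4 and 8 reads in calves 1 and 2, and novel_circ_0001824 and novel_circ_0001825, which share a start, had 6 and 9 in calf 3. All 3 were at 0 in every adult, where a floor of 3 reads allows up to 63.4 to 79.1 CPM, and each was at 0 in at least 1 calf. Summed over the gene, PCCA had a calf mean of 758 ± 343 CPM and an adult mean of 328 ± 110 CPM (SD, n = 3 per age). The log2 change of the gene was -1.14 ± 0.42 (SE), and calf 1, at 376 CPM, lay below adult 3, at 450 CPM. The sum did not pass. It passed in 2 of 12 other settings, without calf 1 (log2 change -1.50) and with the replicate block (-1.11).

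**Figure D2:**
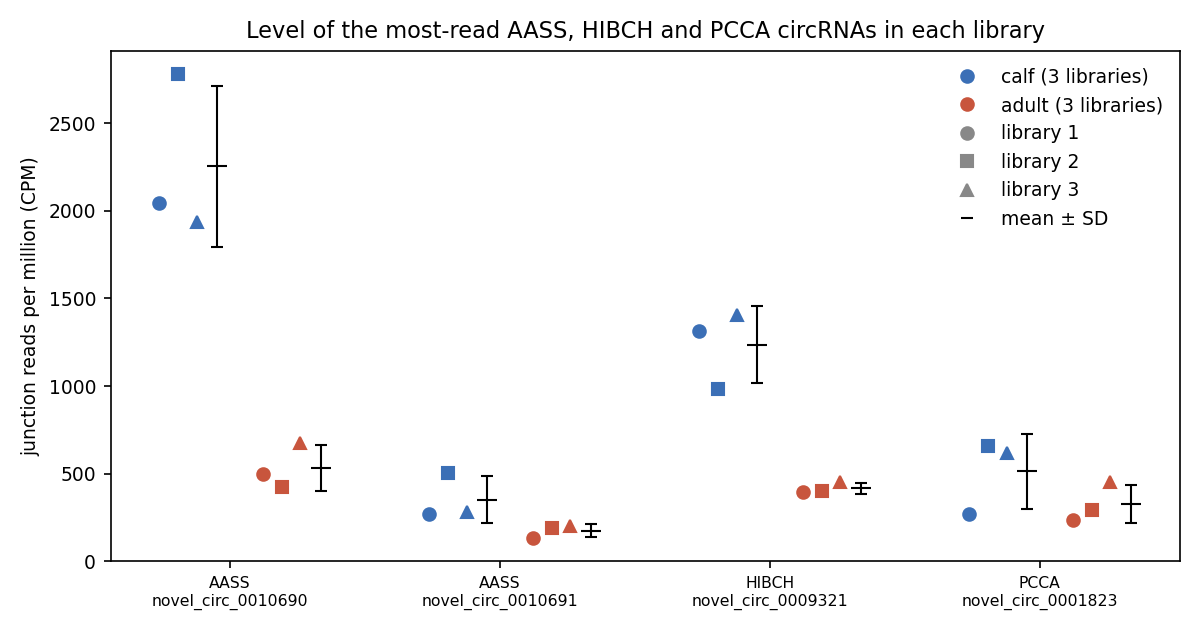
Level of the 4 most-read circRNAs in each library in junction-read CPM, with 1 symbol per library, calves in blue, adults in red, and the mean ± SD of 3 libraries in black. All adult libraries lie below all calf libraries for both AASS circRNAs and the HIBCH circRNA, while for PCCA calf 1 (269 CPM) falls among the adults (237 to 450 CPM).

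Of the 10 circRNAs, 4 passed the filter on low counts, the 4 in the plot of levels by library. The other 6 had at most 25 reads each over the 6 libraries. The AASS and HIBCH leading circRNAs, 2 of the 4, passed the edgeR test as lower in adults (Benjamini-Hochberg adjusted p under 0.05), while 10.4% of the 663 circRNAs tested passed as lower and 8.6% as higher. Every adult lay below every calf in 3 of the 4, and in 22.6% of those tested, and every adult lay above every calf in 0 of the 4 and in 16.7% of those tested. Of the 3, novel_circ_0010691 passed the filter only through its calf libraries, where it was higher. By host gene, AASS and HIBCH passed as lower and PCCA did not, against 6.54% of the 719 host genes tested (5.84% passed as higher). Since the genes were chosen on this contrast, nothing is read from these counts. The median log2 change over all tested circRNAs was 0.00, and that of the 4 was -1.20. All 80 values of the changes of these 4 circRNAs and 3 host genes under other settings were below 0, but they reuse the same reads.

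Non-junction reads of the leading AASS circRNA overlapped between the ages. These are the reads the authors list beside the junction reads of each circRNA, with their definition not given in the sources used here. In 106 of 111 sets of circRNAs with the same listed pieces in the same library the non-junction reads were equal. Of entries of circRNAs without a listed piece, 98.5% were 0. Non-junction reads had a Spearman rho of 0.562 with the given spliced length and 0.544 with the full span. A dependence on the listed pieces is therefore not told apart from one on the span. Whether the libraries were treated with RNase R, an exonuclease that removes linear RNA, is not certain from the labels. Non-junction reads are therefore not read as linear mRNA. They are given only for libraries that detected the circRNA. Their listed total, a sum over the circRNAs called in each library, ranged from 1531419 in calf 3 to 3754287 in calf 2, a 2.45-fold span. Raw reads and reads scaled to the mean of these totals are therefore both given.

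Over novel_circ_0010690 of AASS, calves 1 to 3 had 180, 202 and 204 non-junction reads and adults 1 to 3 had 95, 244 and 269. The raw means were 195 ± 13.3 in calves and 203 ± 94.1 in adults (SD, n = 3 per age). Scaled, calves had 206, 153 and 378 and adults 72.5, 278 and 250. Calf 3 was then the highest library and adult 1 the lowest, and the means were 245 ± 118 and 200.3 ± 112. The difference of the means changed sign with the scaling, and the ages overlapped on both scales. The log2 ratio of junction to non-junction reads, with 0.5 added to each, was -1.24, -0.87 and -1.56 in calves and -2.29, -3.58 and -3.29 in adults. Library medians over the 1192 circRNAs read in all 6 libraries ranged from -4.00 in calf 1 to -3.07 in adult 1. Relative to these medians the AASS ratio was 2.37 ± 0.52 in calves and 0.49 ± 0.27 in adults (SD, n = 3 per age), and the ages did not overlap. Every adult centred ratio lay below every calf one in 9.23% of the 1192 circRNAs. The ratio contains the junction reads on which AASS was chosen.

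The nested AASS circRNA had 28, 42 and 38 non-junction reads in calves and 23, 39 and 53 in adults. Its centred ratio was 2.14 ± 0.59 in calves and 1.28 ± 0.42 in adults (SD, n = 3 per age), with an overlap between calf 3 (1.47) and adult 2 (1.75). For PCCA, non-junction reads over novel_circ_0001823 were 337, 250 and 141 in calves and 86, 161 and 122 in adults, and its centred ratio was -0.04 ± 0.87 in calves and 0.42 ± 0.58 in adults. The raw PCCA means were 243 ± 98.2 non-junction reads in calves and 123 ± 37.5 in adults (SD, n = 3 per age), with calf 3 below adult 2. Scaled, calves had 386, 189 and 261 and adults 65.6, 184 and 114, so the lowest calf lay just above the highest adult. This scaling was chosen after seeing the data. The share of all circRNAs separated in this way was not worked out, so nothing is read from it. Scaled means of the nested AASS circRNA were 44.7 ± 22.2 and 37.1 ± 17.1, and its ages overlapped on both scales.

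The HIBCH circRNA had the highest ratio of the 10. It had 4, 2 and 1 non-junction reads in calves and 3, 3 and 1 in adults, so 190 junction reads stood against 14 non-junction reads over the 6 libraries. Each other circRNA of the 10 had more non-junction than junction reads, from 3.60 times as many for novel_circ_0010691 to 66.4 times for novel_circ_0001825. The mean log2 ratio of the HIBCH circRNA was 3.46, and 65 of the 1192 circRNAs had a higher one. Of these 65, 59 had no listed piece, where non-junction reads are nearly always 0. Among the 1118 circRNAs with listed pieces, 99.4% had a lower ratio. Per listed kilobase the HIBCH circRNA had 4.30 non-junction reads, fewer than novel_circ_0010690 of AASS (11.5) and novel_circ_0001823 of PCCA (13.7), against a median of 27.5 over the 1192. Its centred ratio was 7.76 ± 0.56 in calves and 6.30 ± 1.08 in adults (SD, n = 3 per age), with the lowest calf at 7.42 and the highest adult at 7.39, and with at most 4 non-junction reads in any library.

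**Figure D3:**
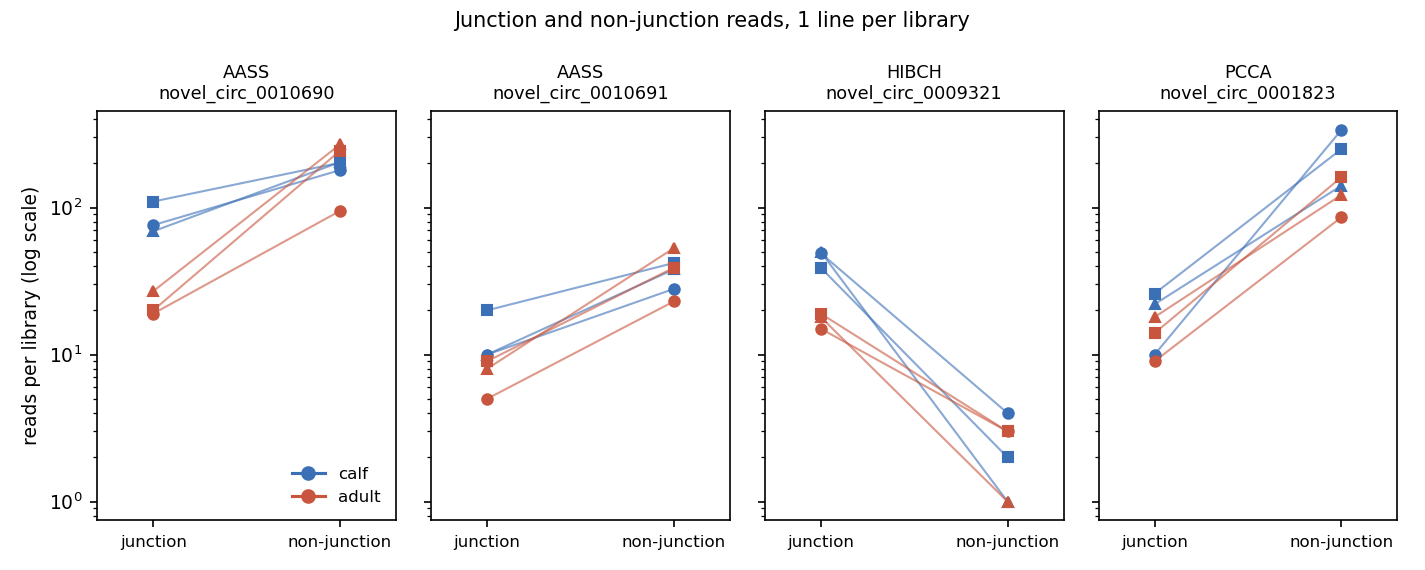
Raw junction and non-junction reads on a log scale for the 4 most-read circRNAs, with 1 line per library, calves in blue and adults in red. For the AASS circRNA novel_circ_0010690 the ages are apart in junction reads (69 to 110 against 19 to 27) and overlap in raw non-junction reads (180 to 204 against 95 to 269), and the HIBCH lines alone slope down.

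**Figure D4:**
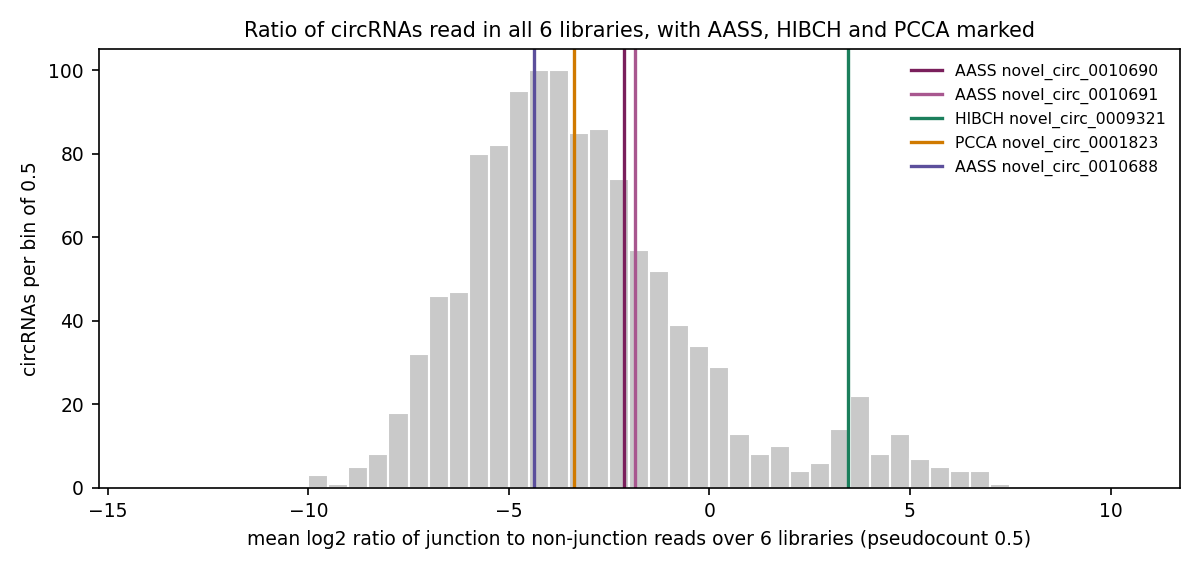
Number of circRNAs in bins of 0.5 of the mean log2 ratio of junction to non-junction reads, for the 1192 circRNAs read in all 6 libraries, with vertical lines at the 5 AASS, HIBCH and PCCA circRNAs among them. The AASS and PCCA lines lie within the main hump (means from -4.38 to -1.86), and the HIBCH line, at 3.46, lies in the small group at high ratios.

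Other genes of these pathways also gave circRNAs in this fat, and the share of all genes that did was not worked out. Their lists were set with earlier results of these data known, so p-values given for them are not free of that choice. The lists of lysine and tryptophan, branched-chain, propionyl-CoA and other amino acid breakdown hold 107 genes besides the 3, of which 39 had junction reads. Only 4 passed the filter, and by the edgeR host gene test 1 was lower in adults and 0 were higher, against 6.54% and 5.84% of all host genes tested. At an unadjusted p under 0.05 it was 2 lower and 0 higher. The share over all host genes at that threshold was not worked out, so nothing is read from this count. With DESeq2 0 passed in either direction. HADHA, a subunit of the mitochondrial trifunctional protein that also serves fatty acid oxidation, was the 1 that passed the test. HADHA passed the filter on low counts only through its calf libraries, where it was higher, so nothing is read from its call. It had 25, 27 and 19 reads in calves and 10, 11 and 9 in adults (log2 change -1.32 ± 0.35 SE, edgeR adjusted p = 0.0274). Its adjusted p ranged from 0.0236 to 0.14 over other settings, and the call was lost without a filter and on removing calf 1, calf 2, adult 1 or adult 2 singly.

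The other 3 tested were TMLHE, CCBL1 and ACSS3. TMLHE, which hydroxylates trimethyllysine in the first step of carnitine synthesis, had 66, 40 and 60 reads in calves and 37, 27 and 32 in adults (log2 change -0.87 ± 0.30 SE, edgeR adjusted p = 0.0754). CCBL1, a kynurenine aminotransferase gene, had 41 calf and 37 adult reads in all (log2 change -0.25 ± 0.45 SE). ACSS3, an acyl-CoA synthetase gene placed with propionate, had 55, 75 and 77 reads in calves and 72, 70 and 21 in adults (log2 change -0.43 ± 0.38 SE). Adult 3 alone was low. The median log2 change of the 4 was -0.65, beside 0.01 over all tested host genes.

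Along the lysine route after AASS, ALDH7A1 and GCDH had no junction reads. AADAT, which transaminates aminoadipate, had 10 reads in each of calves 1 and 2 and 0 in the other libraries. DHTKD1, a subunit of the 2-oxoadipate dehydrogenase, had 8, 4 and 5 reads in calves and 18, 9 and 13 in adults. Adults 1 and 3 lay above every calf in CPM. OGDH, the 2-oxoglutarate dehydrogenase gene, had 19, 11 and 7 reads in calves and 5, 9 and 5 in adults, with every adult below every calf in CPM. These 3 genes were under the filter and were not tested.

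Around HIBCH in valine breakdown, the branched-chain transaminase gene BCAT2 and ALDH6A1, which makes propionyl-CoA from valine, had no junction reads. DBT, the transacylase of the branched-chain ketoacid dehydrogenase, had 0, 6 and 2 reads in calves and 7, 9 and 5 in adults. HIBADH, whose enzyme acts directly after HIBCH, had 9, 14 and 5 in calves and 8, 5 and 7 in adults, without the separation of ages seen for HIBCH. Around PCCA, its partner subunit PCCB had 7, 4 and 6 reads in calves and 3, 9 and 0 in adults. The methylmalonyl-CoA mutase gene, listed as MUT, had 2 reads in calf 3 and 2 in adult 2. SUCLA2, a succinyl-CoA ligase subunit gene, had 9, 14 and 8 reads in calves and 0, 4 and 4 in adults.

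Among 8 other biotin-dependent carboxylase and biotin-handling genes, 7 had reads and 1 was tested. This was ACACA, acetyl-CoA carboxylase, with 40, 43 and 23 reads in calves and 3, 2 and 5 in adults over 14 circRNAs (log2 change -3.44 ± 0.46 SE, edgeR adjusted p = 0.0015). ACACA passed the filter only through its calf libraries, and this list too was set with earlier results known. Of 20 amino acid transporter genes 9 had reads, 86 in all, and 0 passed the filter. The most read was SLC38A1, with 11, 10 and 7 reads in calves and 10, 2 and 8 in adults.

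**Figure D5:**
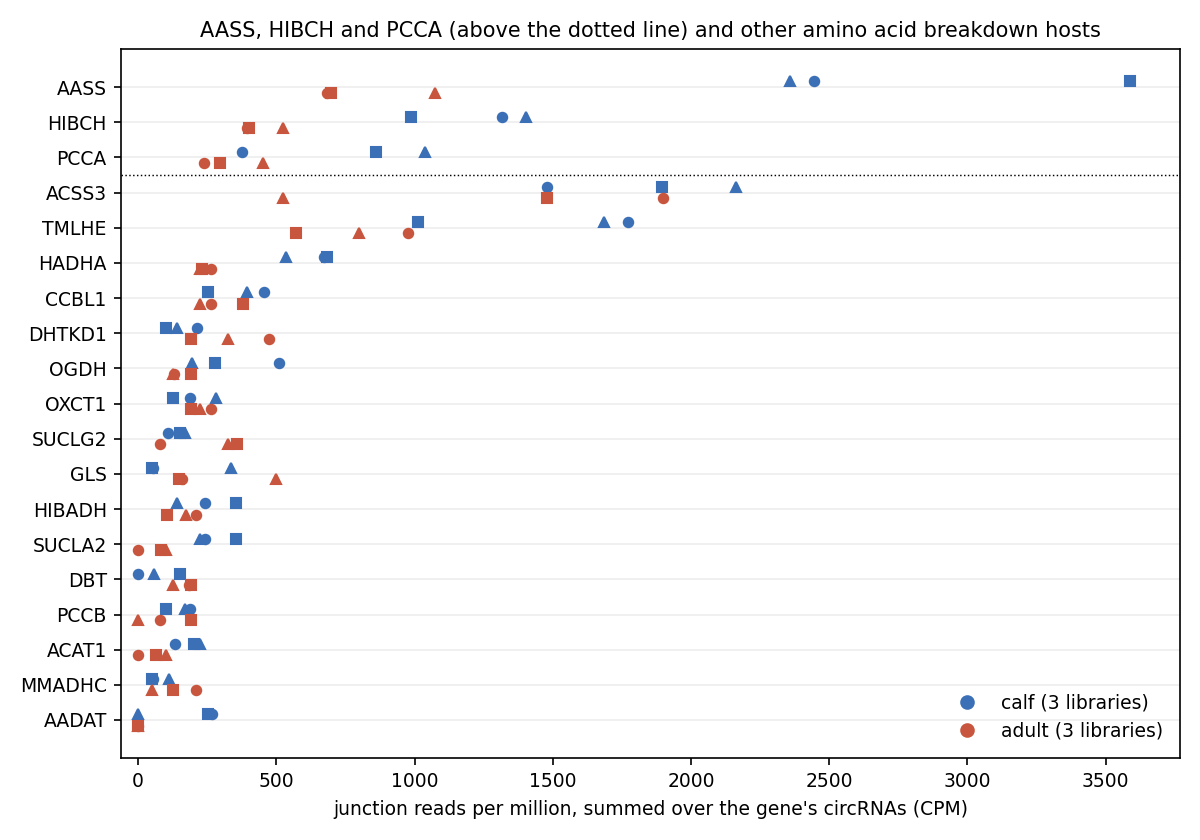
Junction-read CPM in each library, summed over the circRNAs of each gene, for AASS, HIBCH and PCCA above the dotted line and for the other breakdown genes with at least 20 reads below it, with calves in blue, adults in red, and libraries 1, 2 and 3 as circles, squares and triangles. AASS and HIBCH are separated by age. Of the 16 genes below the line 5 (HADHA, TMLHE, OGDH, SUCLA2 and ACAT1) have every adult under every calf and 0 have every adult over every calf. The shares are 18.4% and 15.2% of the 719 tested host genes. Those 719 passed the filter on low counts and only 4 of the 16 did, so the sets are not alike.

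The host genes whose levels followed each of the 3 most closely over the 6 libraries were found by Pearson correlation of log2 CPM among the 719 tested, as a description. For AASS these were STK39, a kinase gene of ion transport control (r = 0.988), ACACA (0.975) and the zinc-finger gene ZNF292 (0.975). STK39 had 11, 15 and 10 reads in calves and 3, 3 and 6 in adults. For HIBCH they were NRK (0.989), CTNNAL1 (0.986) and ZEB1 (0.979). NRK, a kinase gene of the Nik-related family, had 16, 13 and 16 reads in calves and 0, 0 and 2 in adults. CTNNAL1 had 30, 25 and 29 reads in calves and 3, 4 and 4 in adults. For PCCA they were the ubiquitin ligase gene RNF4 (0.971), UHRF1BP1 (0.944) and STAU1 (0.889), whose product binds double-stranded RNA. AASS and HIBCH had 39 other host genes each above r = 0.9 and PCCA had 2. The points are 6 libraries in 2 ages, so any genes that differ by age correlate. STK39, ACACA, NRK and CTNNAL1 passed the filter only through their calf libraries, so their high r restates the age difference on which AASS and HIBCH were chosen. Among themselves AASS and HIBCH had r = 0.903, AASS and PCCA 0.787, and HIBCH and PCCA 0.715.

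Marker genes of other cell types were read sparsely, their lists were not tested for age, and their members did not all go 1 way. Of 14 white fat cell markers 6 had junction reads, summing to 62 to 88 in calves and 18 to 42 in adults, mostly from PPARG. ADIPOQ, the adiponectin gene, had 2, 6 and 4 reads in calves and 4, 0 and 0 in adults, while DGAT2 had 0 in calves and 2, 4 and 0 in adults. PLIN1, LEP and FABP4 were at 0 in every library. Of 4 brown fat cell markers 2 had reads: UCP1, the uncoupling protein gene of brown fat, had 6, 8 and 6 reads in calves and 0 in adults, and PRDM16 had 2 reads in adult 1. The 8 immune markers summed to 2 to 18 reads in calves and 44 to 460 in adults, nearly all from ADGRE1, and PTPRC, CSF1R and CD68 were at 0. The 7 endothelial markers summed to 36 to 38 reads in calves and 42 to 52 in adults. Among them VWF had 0 in calves and 10, 18 and 2 in adults, while FLT1 had 21, 23 and 17 in calves and 14, 16 and 17 in adults. The part of these cell types in the AASS, HIBCH and PCCA values was not tested.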

How the data were processed

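The authors deposited a count of back-splice junction reads for each circRNA and library, and the same values as CPM under the header TPM, per the file headers. The positions, listed introns and exons, and non-junction reads come from the deposited annotation table. Per the submitters' processing notes, Trim Galore, TopHat2 2.0.14, TopHat and Cufflinks were used, with the circRNA caller and genome build not given in the sources used here. In the deposited comparison are the authors' scaled group means (a signal), log2 fold changes and p-values. Libraries were grouped by labelled age, and 0 per-sample columns were left unassigned.

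Counts were tested in edgeR 4.0.16 (quasi-likelihood, R 4.3.3, TMM, filterByExpr, all 6 libraries, Benjamini-Hochberg threshold 0.05), per circRNA (663 tested) and summed per host gene over circRNAs of 1 gene (719 tested). Tested on simulated data with 200 features changed by 2 on the log2 scale, it recovered 93.5% of those 200 among 663 circRNAs and 96.5% of those 200 among 719 host genes, and called 0.864% and 1.73% of the unchanged features. Smaller changes were not simulated, so this does not say how often changes of the size that did not pass here would be found. SE come from the F statistic. Nothing in the labels says the libraries of an age are more than separate samples of that age, so p-values measure the spread between these samples. Named genes are AASS, HIBCH and PCCA, the listed pathway hosts, and the 3 host genes closest to each by log2 CPM with a prior count of 2. The members and lists were chosen with earlier results of these data known. DESeq2 1.42.0, total-count scaling, other filters, a replicate block and fits without each library were alternatives. Marker lists covered white and brown fat, muscle, immune, endothelial, fibroblast, epithelial and nerve cells; the last 3 had at most 4 reads in any library.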

Additional observations from a re-analysis of the deposited data

How the results depend on the processing

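The log2 changes of the 4 tested AASS, HIBCH and PCCA circRNAs and of the 3 host genes were below 0 in all 80 alternative values. Of these, 79 lay within 1 SD of the reported value. The exception was novel_circ_0009321 of HIBCH without calf 2 (-1.64). This SD is the spread of log2 CPM between libraries of an age, pooled over both ages. The alternatives reuse the same reads and could hardly move a change by that much, so nothing is read from the count. The leading AASS and HIBCH circRNAs passed in each of 11 alternatives and novel_circ_0001823 of PCCA and novel_circ_0010691 of AASS in 0. These fits repeat the contrast on which the genes were chosen, so their passes are a description. PCCA by host gene passed in 2 of 12, without calf 1 and with the replicate block. The difference in uncentred log2 ratio of the PCCA circRNA, adult minus calf, changed sign, from -0.18 to 0.99 over fits without 1 library, that of HIBCH ranged from -1.86 to -0.97, and that of AASS from -2.21 to -1.57. The difference in mean non-junction reads of the leading AASS circRNA was 7.33, from -25.8 to 61.2 without 1 library and -45.1 with scaled reads, a setting chosen after seeing the data.

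The number of circRNAs called, 126, was 202 without a filter and 71 to 138 without 1 library. With the replicate block it was 56, and 101 host genes were called against 89. The numbers in the titles do not show paired samples: deviations of same-numbered libraries correlated at -0.05, 0.07 and 0.02, and 1 calf and 1 adult library correlated best with their own number. Without 1 library, 55 to 123 host genes were called. Among the other amino acid breakdown hosts, 0 were called lower with DESeq2 and 0 to 2 without 1 library (2 without calf 3, HADHA and AADAT), and without a filter it was AADAT in place of HADHA, and 0 were called higher in any of these fits. Depth limits what can be said of the 6 circRNAs with at most 25 reads.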
